A study of Mus musculus with 10 samples.

Results

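Nono, Tbp and Rpl13a stand for 3 steps of gene expression: the handling of RNA in the nucleus, the start of transcription and the translation of mRNA into protein. They were chosen by name from the 15 genes that carried a reference sequence accession on an Arraystar mouse lncRNA array, out of 60915 probes analysed, and each was read by 1 probe printed in 20 spots on every array. Blood came from female C57BL/6 mice labelled as 3 months old. The exposed group (MWCNT, 5 mice) had received 40 µg of multi-walled carbon nanotubes, which are nested tubes of carbon, into the airway by pharyngeal aspiration 56 days earlier. The control group (5 mice) had received the vehicle. No genetic modification is named for either group. RNA of each mouse was put on 1 array, and the question was whether blood transcripts differed between exposed and vehicle mice.

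NONO is a nuclear RNA-binding protein of the paraspeckles, bodies built on a long non-coding RNA, and takes part in transcription, splicing and the nuclear retention of RNA. TBP is the TATA-binding protein, which all nuclear RNA polymerases need to start transcription. RPL13A is a protein of the large ribosomal subunit, known in myeloid cells also for leaving the ribosome after interferon stimulation and repressing the translation of inflammatory mRNAs. All of these genes are widely used as reference genes to normalize other transcripts, a use that rests on a steady level.

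The 100 bases before the outermost annotated start of each gene are shown for how the genes differ there in 3 promoter motifs. Which starts are used in blood, and where TBP binds, was not tested. The bases come from RefSeq on GRCm38.p6, in which all 3 genes were matched, and run 5′ to 3′ on the strand of the gene. Capitals mark these motifs, searched on both strands. TATAAA is the TATA box. The box bound by the factor NF-Y is CCAAT. The GC box, bound by factors of the Sp family, is GGGCGG, and it reads as CCGCCC where it lies on the opposite strand. No 2 matches overlapped.
Nono, chrX:101429460-101429559, plus strand: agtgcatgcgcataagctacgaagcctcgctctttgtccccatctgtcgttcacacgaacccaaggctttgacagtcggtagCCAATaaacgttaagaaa
Tbp, chr17:15499788-15499887, plus strand: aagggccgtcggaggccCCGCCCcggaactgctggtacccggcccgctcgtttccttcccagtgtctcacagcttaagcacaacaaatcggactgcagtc
Rpl13a, chr7:45128746-45128845, minus strand: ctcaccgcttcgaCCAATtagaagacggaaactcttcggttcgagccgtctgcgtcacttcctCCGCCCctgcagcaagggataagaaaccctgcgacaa

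None of the 3 windows held TATAAA, the TATA box, including that of Tbp, the gene of the protein that binds it. Nono held the NF-Y box beginning 18 bases before the start. Tbp held a GC box beginning at 83 bases, and Rpl13a an NF-Y box at 87 bases and a GC box at 37. Their GC contents were 49%, 63% and 56%. Of 23204 windows of the same length in the same table, 6.27% held the TATA box letters, 19.9% those of the NF-Y box and 22.6% those of the GC box, so each match was of a common kind. A match is a string of letters and not a shown binding site.

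The arrays were scanned in 2 runs, per the file headers. The first run held all 5 controls and MWCNT 1, 2 and 3, and the second held MWCNT 4 and 5 only. The arrays of the second run stood apart: 55.2% and 58.5% of their probes were well above background, against 42.0% to 47.7% in the first run. Since no control was scanned in the second run, the run and those mice cannot be told apart. Results are therefore given over all arrays and within the first run. Among the blood cell markers sought, only Tfrc, listed as a marker of red cell precursors, was paired with a probe in the tables used. Other members of these pathways were not paired with probes. The tissue label was therefore not checked against markers, and no pathway list was analysed here.

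All 3 probes were well above background on every array, and no spot was saturated. The probe of Nono gave signals of 3183 to 5625, and its spots agreed closely, with a median coefficient of variation of 2.48% within an array. Outlier flags had been set on 22 of its 200 spots, 0 to 6 per array, and these spots were left out. The probe of Rpl13a gave signals of 122 to 297 with a spot variation of 4.42%. That of Tbp gave 29.6 to 55.8 with a spot variation of 20.7%, and 181 of its 197 unflagged spots were well above background. Tbp was therefore the least precisely measured of the 3 genes.

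Averaging the spots left little of that imprecision in the array values of Nono and Rpl13a. Over all 10 arrays, error of the spot mean made up 0.0572% of the variance between arrays for Nono, 0.127% for Rpl13a and 15.5% for Tbp. Within the groups the share for Tbp was 9.09% in controls and 61.1% in MWCNT mice, so the narrow spread of Tbp among MWCNT arrays was largely of the size of its spot error. The number of arrays limits the precision of the comparisons.

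Nono, the RNA-binding protein, varied widely in both groups. On the log2 scale, after subtraction of the array's own 75th percentile, the controls 1 to 5 read 2.26, 2.00, 1.46, 2.10 and 1.37. The MWCNT arrays 1 to 5 read 1.61, 2.15, 1.82, 1.20 and 1.20. The second-run arrays MWCNT 4 and 5 were the lowest of all, and the other MWCNT arrays lay inside the range of the controls. The group means were 1.84 ± 0.40 (SD, n = 5) in controls and 1.60 ± 0.41 (SD, n = 5) in MWCNT mice. In the authors' deposited log2 table the controls read 12.58, 12.24, 11.73, 12.38 and 11.62. The MWCNT arrays read 11.85, 12.42, 12.12, 11.56 and 11.62 there. Controls 3 and 5 were low and controls 1 and 4 high in both versions of the data.

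Tbp, the initiation factor, was the steadiest of the 3. Controls 1 to 5 read -5.01, -4.52, -4.90, -5.28 and -4.90. MWCNT arrays 1 to 5 read -4.88, -4.90, -5.05, -5.00 and -5.08. All MWCNT values lay within the range of the controls, whose spread came from control 2 at the top and control 4 at the bottom. On control 4 the spots of Tbp varied most (SD 0.62 on the log2 scale), and 15 of 20 were well above background. Their unscaled log2 signal had a mean of 4.78 and a median of 5.08, so the lower end of that range rests on averaging its dim spots. The means were -4.92 ± 0.27 (SD, n = 5) in controls and -4.98 ± 0.09 (SD, n = 5) in MWCNT mice. Deposited values were 5.44, 5.73, 5.38, 5.13 and 5.40 in controls. Those of the MWCNT arrays were 5.34, 5.39, 5.20, 5.38 and 5.19. Control 2 was again the highest and control 4 the lowest.

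Rpl13a, the ribosomal protein, varied about as widely as Nono. Controls 1 to 5 read -2.78, -2.12, -2.06, -3.13 and -2.39. MWCNT arrays 1 to 5 read -2.06, -2.67, -2.40, -3.19 and -2.71. The groups overlapped over nearly their whole range, with control 4 and MWCNT 4 the lowest. The means were -2.50 ± 0.46 (SD, n = 5) in controls and -2.60 ± 0.42 (SD, n = 5) in MWCNT mice. Deposited values were 7.59, 8.19, 8.22, 7.23 and 7.91 in controls. Those of the MWCNT arrays were 8.22, 7.61, 7.89, 7.20 and 7.59. Control 4 and MWCNT 4 were the lowest of their groups there too.

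**Figure D1:**
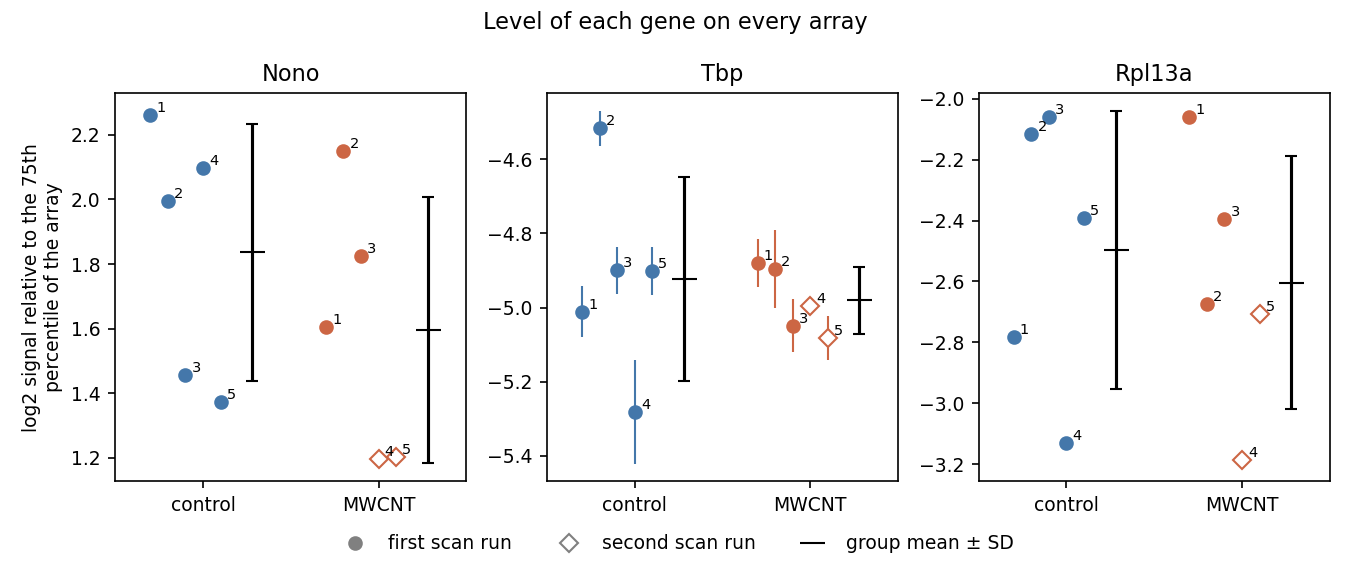
Each panel plots 1 gene, with the log2 signal minus the array's 75th percentile on the y axis (scales differ between panels) and the group on the x axis; numbered points are single mice, thin bars the standard error over the spots (hidden where smaller than the point), black marks the group mean ± SD. MWCNT 4 and 5, scanned in the second run, are the 2 lowest points of Nono, at 1.20, while all MWCNT points of Tbp lie within the range of the controls and those of Rpl13a span about the same range as the controls.

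Against other transcripts on the array, the steadiness of these reference genes was unequal. The SD over all 10 arrays was 0.40 for Nono, 0.20 for Tbp and 0.42 for Rpl13a, beside a median of 0.41 over 27845 probes. A smaller SD was found in 47.8% of those probes for Nono, in 5.96% for Tbp and in 50.9% for Rpl13a. Nono and Rpl13a thus varied like a typical probe, and Tbp less than most. Among the 5 controls alone, the share of probes with a smaller SD was 69.5% for Nono, 44.7% for Tbp and 77.7% for Rpl13a. In unexposed mice of 1 scan run, Nono and Rpl13a were therefore more variable than most probes. In the deposited values of the controls these shares were 74.0%, 27.1% and 74.1%.

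None of the genes differed between MWCNT and control mice beyond the spread within the groups. limma's moderated test, adjusted by Benjamini-Hochberg across 28009 probes, gave Nono a log2 difference of -0.24 (SE 0.25), with a 95% interval of -0.78 to 0.30 and an adjusted p of 0.811. As a fold, this is 0.846 with an interval of 0.582 to 1.23. Tbp differed by -0.06 (SE 0.18, interval -0.44 to 0.33, adjusted p = 0.915 in limma), a fold of 0.960 with an interval of 0.735 to 1.25. Rpl13a differed by -0.11 (SE 0.26, interval -0.68 to 0.46, adjusted p = 0.893 in limma), a fold of 0.928 with an interval of 0.625 to 1.38. Each interval lay within a 2-fold change in either direction, so the data leave room for changes of either sign inside those bounds. All 3 estimates were below 0, as was the median of all tested probes, -0.05.

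Across all tested probes the same limma fit called 0 at an adjusted p under 0.05, that is 0%, the lowest adjusted value being 0.809. Before adjustment 805 probes, or 2.87%, had a p under 0.05, none of them a probe of these genes. Of 24 alternative fits 22 called none, while that with array weights called 2 probes and that with the array column as a block in the first run called 3, none of them a probe of Nono, Tbp or Rpl13a. The replicates are separate mice, so the p-values measure the spread between animals together with that of extraction and labelling. The MWCNT arrays came from both scan runs, so in the fit over all arrays this spread also holds any difference between runs. In whole blood, fewer cells of a type and less RNA per cell cannot be told apart.

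The estimates for Nono and Rpl13a changed sign once the scan run entered the fit. With the scan run as a block, the log2 difference was 0.02 (SE 0.23) for Nono and 0.12 (SE 0.27) for Rpl13a, each with an adjusted p of 1.00 in limma. The median of all probes was 0.03 in that fit. Tbp stayed near 0 at -0.02 (SE 0.18, adjusted p = 1.00 in limma). With the block only first-run arrays inform the estimate, and a fit to those 8 arrays alone gave the same differences, with SE 0.24, 0.27 and 0.18 for Nono, Rpl13a and Tbp. The limma fit with the block called 0 probes, with 991 at an unadjusted p under 0.05. Per the headers, controls 1 to 4 also lay in another array column than control 5 and MWCNT 1 to 3. With that column as a block in the first run, the differences were 0.49 (SE 0.35, adjusted p = 0.891 in limma) for Nono, -0.04 for Tbp and 0.01 for Rpl13a, so the size for Nono rests on which arrays are compared.

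The second run was compared with the first in a limma fit with group and run. Nono differed by -0.66 on the log2 scale (SE 0.29, interval -1.30 to -0.02), lower in the second run. Its unadjusted p was 0.0446 and its adjusted p 0.0979 in limma, so it did not pass the threshold. Rpl13a differed by -0.57 (SE 0.33, interval -1.31 to 0.17, adjusted p = 0.198 in limma) and Tbp by -0.10 (SE 0.22, interval -0.59 to 0.39, adjusted p = 0.745 in limma). The median of all probes was -0.22, so Nono and Rpl13a lay below that median and Tbp above it. With quantile normalization the median was -0.07. A smaller absolute difference was found in 53.7% of the probes for Nono, 46.7% for Rpl13a and 8.26% for Tbp, so the differences of Nono and Rpl13a were of ordinary size.

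The background for this contrast was high: limma called 9215 of 28008 probes between runs, or 32.9%, while it called 0 of these 3 genes. Of the other 11 reference genes that could be measured, 6 were called, 5 of them lower and 1 higher in the second run. Hprt, of purine salvage, differed by -1.23 and Actb, cytoskeletal actin, by -1.06, whereas Hsp90ab1, a cytosolic chaperone, differed by 0.61. Of all called probes 40.5% were higher, and this share moved to 54.9% with quantile normalization and 61.3% with cyclic loess. Leaving out MWCNT 4 reduced the calls to 1993 and leaving out MWCNT 1 to 5310, so these counts rest on few arrays. The sign for Nono and Rpl13a was negative under each of the scalings tried, from -0.66 to -0.29 for Nono and from -0.57 to -0.38 for Rpl13a. That of Tbp turned to 0.01 with normexp background correction and to 0.0096 with quantile normalization.

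**Figure D2:**
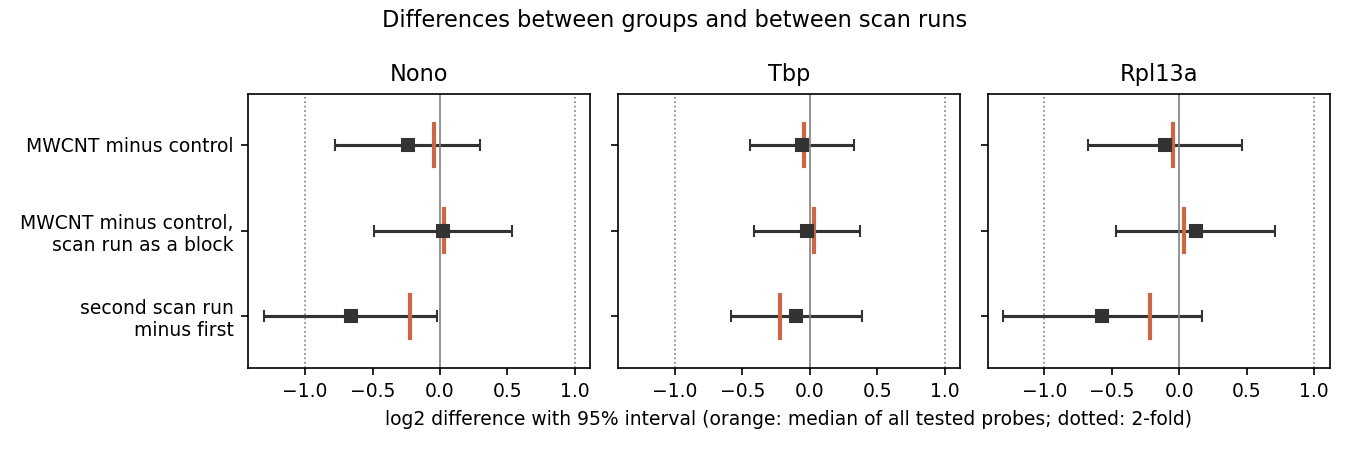
For each gene, squares show the log2 difference from limma on the x axis with its 95% interval, for MWCNT minus control, the same with the scan run as a block, and the second run minus the first; orange bars mark the median of all tested probes and dotted lines a 2-fold change. The exposure intervals all span 0, and the widest shifts are those between runs, -0.66 for Nono and -0.57 for Rpl13a.

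The signals before scaling give the arithmetic of this shift. The 75th percentile of the second-run arrays was 10.79 and 10.80 on the log2 scale, against 10.05 to 10.36 in the first run. Nono read 4074 and 4111 on MWCNT 4 and 5, close to its median of 4092 over all arrays. It was therefore low in the second run only relative to brighter arrays. Tbp read 55.8 and 53.5 there, its highest signals on any array. On MWCNT 4 and 5 the unscaled log2 signals of Rpl13a were 7.61 and 8.10, within the first-run range of 6.93 to 8.21. The cause of the brighter second run was not tested.

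Differences taken within an array do not depend on an additive scaling, so the genes were also compared in pairs, 3 pairs in all. Between MWCNT and control arrays the gap of Nono to Tbp differed by -0.18, that of Nono to Rpl13a by -0.13 and that of Tbp to Rpl13a by 0.05. Exact permutation tests over all 252 assignments, 2-sided, gave p = 0.524, 0.762 and 0.802, each 0.802 after Benjamini-Hochberg adjustment. No pair thus changed its balance with exposure beyond the spread within the groups. In the first run alone the differences were 0.04, -0.10 and -0.14, with exact permutation p = 0.929, 0.839 and 0.518 over 56 assignments, all 0.929 adjusted. The signs for Nono to Tbp and for Tbp to Rpl13a turned there. Among MWCNT arrays the second run differed from the first by -0.56, -0.09 and 0.47 (exact permutation p = 0.2, 0.9 and 0.3), where 10 assignments allow no p under 0.1.

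How the genes vary together was read from the 8 arrays of the first run, since the arrays of the second lie apart and no pooled correlation is given. Tbp and Rpl13a tended to be high on the same arrays (Pearson r = 0.73, exact permutation p = 0.0378, adjusted 0.111 over the 3 pairs). Their Spearman rho was 0.71 (exact permutation p = 0.0576, adjusted 0.0864). Without control 2 and control 4, the arrays farthest from the median of Tbp, r was 0.46 (exact permutation p = 0.31), so the relation rests in part on these arrays. Without control 4 alone, the array on which the spots of Tbp varied most, r was 0.49.

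Nono ran the other way from Rpl13a, with r = -0.66 (exact permutation p = 0.0741, adjusted 0.111) and rho = -0.71 (exact permutation p = 0.0576, adjusted 0.0864). Control 3 and MWCNT 1 combined low Nono with high Rpl13a, and controls 1 and 4 and MWCNT 2 the reverse. Control 2 did not follow this, being above the first-run median in both genes, and without it r was -0.79. Control 5, the lowest of the first run in Nono, had a middling Rpl13a, and without it r was -0.77. Without control 5 and control 3, farthest from the median of Nono, r was -0.72 (exact permutation p = 0.103). Nono and Tbp showed little relation, with r = -0.17 and rho = -0.17 (exact permutation p = 0.703 for each). Without those same controls r remained -0.17 (exact permutation p = 0.758). No pair passed the adjusted threshold.

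Removing the group means left these values much the same, with r = 0.75 for Tbp with Rpl13a and -0.68 for Nono with Rpl13a. Correlations of levels scaled to the same percentile share that percentile. Without any scaling they were 0.80 and -0.57, and with quantile normalization 0.51 and -0.66. Both relations thus kept their sign, and that of Nono with Rpl13a moved less with the scaling. Neither passed the adjusted threshold under any alternative.

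**Figure D3:**
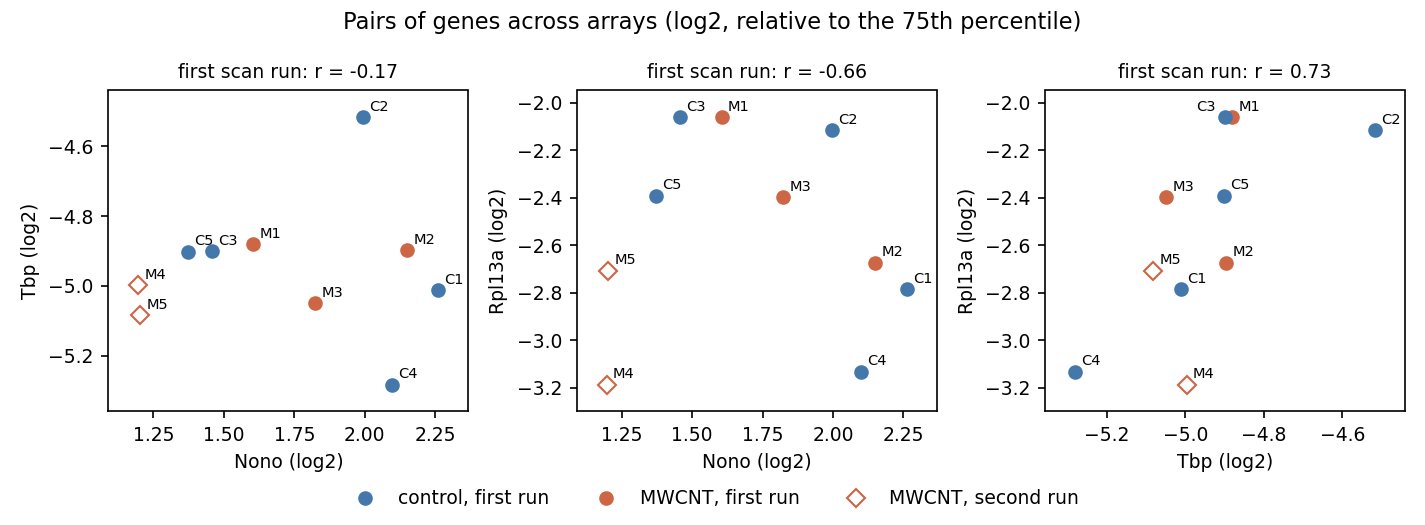
Each panel plots 1 pair of genes, both axes in log2 minus the array's 75th percentile; C and M mark control and MWCNT mice by replicate number, and the r above each panel covers the 8 filled points of the first run. In the first run the points slope down for Nono with Rpl13a (r = -0.66) and up for Tbp with Rpl13a (r = 0.73), and MWCNT 4 and 5 lie off the first of these slopes, low in both genes.

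The genes most like each of the 3 were sought among the 11 other measurable reference genes, by Pearson r over the 8 first-run arrays, as a description without a test. Rpl13a was most like Ppia (r = 0.95), a prolyl isomerase of the cytosol, and Hprt (r = 0.93). It correlated above 0.5 with 9 of the 11 and was negative with 1, Tfrc, the transferrin receptor. These counts moved to 5 and 3 with median scaling, and the signs with Gk and Hsp90ab1 turned under some scalings. Across the 7 scalings compared, its r stayed between 0.91 and 0.95 with Ppia and between 0.89 and 0.94 with Hprt. High values were not rare for Rpl13a, since 12.3% of 27905 probes correlated with it above 0.8. Of the same probes, 51.5% were negative with Rpl13a.

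Tbp was most like G6pd2 (r = 0.88), a glucose-6-phosphate dehydrogenase gene, and Gusb (r = 0.86), lysosomal beta-glucuronidase. Across the scalings these ranged from 0.81 to 0.92 and from 0.69 to 0.86. Its r was above 0.5 with 5 of the 11 genes, a count that fell to 3 under each of the other scalings compared. It was negative with 2 of the 11, and with up to 5 under other scalings. Tbp thus shared part of the pattern of Rpl13a, whose r with Gusb was 0.91 and with G6pd2 0.76. Of all probes, 2.57% correlated with Tbp above 0.8 and 47.9% were negative with it. On every array Tbp, Gusb and G6pd2 gave the lowest signals of the measurable reference genes, and Gusb was well above background on 9 arrays. Whether background shaped their likeness was not tested.

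Nono stood against most of the other reference genes. Its highest correlations were with Tfrc (r = 0.45) and Hsp90ab1 (r = 0.14), and it was negative with the other 9. Across the scalings these ranged from 0.45 to 0.58 and from 0.10 to 0.67, and with median scaling Hsp90ab1 came first. It was below -0.5 with 6 of the 11, among them Tuba1b, a tubulin (r = -0.88), Ppia (r = -0.82) and Gapdh, of glycolysis (r = -0.81). Over the 7 scalings its r ranged from -0.90 to -0.85 with Tuba1b, from -0.85 to -0.78 with Ppia and from -0.83 to -0.76 with Gapdh, while the signs with G6pd2 and Gk turned under some. Over all probes 48.9% were negative with Nono, a share that was 33.4% with median scaling. The count of 9 reference genes fell to 7 with normexp background correction. Of all probes, 7.91% correlated with Nono below -0.8 and 5.31% above 0.8. These correlations come from 8 arrays that share a scan run, and RNA quality and cell composition were not measured in the files used. Genes that ran against Nono also varied together, since Tuba1b, Ppia and Gapdh correlated with Rpl13a at r = 0.90, 0.95 and 0.72. The counts over the 11 genes are therefore not counts of separate comparisons.

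**Figure D4:**
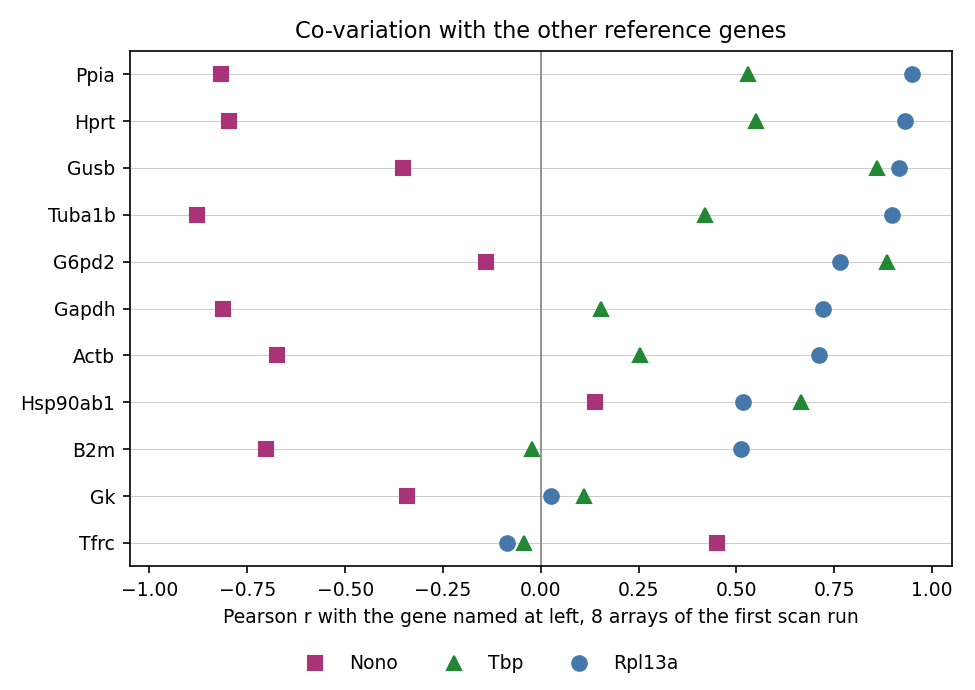
Pearson r over the 8 arrays of the first scan run is plotted on the x axis for Nono, Tbp and Rpl13a against each of the 11 other measurable reference genes on the y axis, ordered by their r with Rpl13a. Rpl13a (circles) reaches 0.95 with Ppia, Tbp (triangles) 0.88 with G6pd2, and Nono (squares) is negative with 9 of the 11, beside 48.9% of all probes.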

How the data were processed

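Whole blood RNA of 10 mice was measured, 1 array each. Per the labels' protocols, the authors removed ribosomal RNA, amplified by random priming and labelled with Cy3. The scanner files hold spot intensity in processed form (background subtracted), made with Feature Extraction 11.0.1.1 per the file headers. The authors' deposited table holds log2 values of 60819 of the probes analysed, and how it was normalized is not given in the sources used. Each column had a median of 4.17 and correlated with its own array's scanner values at r from 0.988 to 1.00. After quantile normalization of the scanner values, the median absolute gap per array was 0.0023 to 0.0090, so the 2 versions are not independent.

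Control and outlier-flagged spots were left out, the log2 values of the spots of a probe were averaged, and each array's 75th percentile was subtracted, taken over 23245 probes that were well above background on every array. Probes well above background on at least 5 arrays were tested with limma 3.58.1 in R 4.3.3 (lmFit and eBayes, 2-sided, Benjamini-Hochberg, threshold 0.05). A probe was counted as above background on an array when over 0.5 of its unflagged spots were. Differences between genes within an array, and correlations across arrays, were tested with exact permutation tests. The code of these permutation tests was checked on made-up values with known answers.

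The genes and lists were chosen with earlier results of these data known. The rule named all 3 genes and, for each, the 2 other reference genes with the highest r. Names came from accessions matched to RefSeq GRCm38.p6. Rpl13a, Ppia and Gapdh have processed copies elsewhere in the genome and G6pd2 is itself a retrocopy, and their probes may read such copies too. Ldhal6b, another reference gene, was above background on 0 arrays and left out. Alternatives were other scalings, filters, variance models, blocks, array weights, spot averages and each array left out.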

Additional observations from a re-analysis of the deposited data

How the results depend on the processing

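Of 216 alternative values of 12 results on single genes and pairs, 0 passed the threshold and 25 turned sign; none of the 12 passed it as first reported either. Exposure differences turned for Nono to 0.0235 and for Rpl13a to 0.12 with the scan run as a block or the first run only, and to 0.49 and 0.0142 with the array column as a block, an alternative added after seeing the data that compares 3 MWCNT arrays with 1 control of their column. Array weights moved Tbp to -0.24 and Nono to -0.05 without a call. With 1 array left out, Nono ranged from -0.38 to -0.13, Tbp from -0.15 to 0.0427 (the latter without control 2) and Rpl13a from -0.27 to 0.0375 (without MWCNT 4, and above 0 also without control 3). For the pairs, Nono to Tbp turned to 0.0429 in the first run and 0.0094 with cyclic loess (-0.30 to -0.03 with 1 array left out). Nono to Rpl13a turned to 0.0134 with cyclic loess (-0.34 to 0.0916, above 0 without MWCNT 1, control 1 or control 4). Tbp to Rpl13a turned to -0.14 in the first run (-0.0921 to 0.16, below 0 without MWCNT 4 or control 3). The correlation of Nono with Tbp was 0.0277 with quantile normalization, 0.0203 with cyclic loess, 0.0207 with normexp and 0.0169 with the deposited values (-0.50 to 0.0457 with 1 array left out, above 0 without control 4). The run difference of Tbp was 0.0096 with quantile normalization and 0.0124 with normexp. Calls for exposure were 0 in 22 of 24 alternatives, 2 with array weights and 3 with the column block; these probes carry no gene name here and were ASMM10P045395 (higher) and ASMM10P046372 (lower), then ASMM10P010886 (higher), ASMM10P051264 and ASMM10P054378 (both lower), singled out after their values were seen. Calls between runs were 28952 with no filter and 1993 to 8745 with 1 MWCNT array left out. The cause of these shifts was not tested. With the replicate number as a block the exposure differences were -0.24, -0.06 and -0.11 for Nono, Tbp and Rpl13a, and limma called 0 probes, with 880 under an unadjusted p of 0.05. Same-numbered arrays deviated together at correlations of -0.45 to 0.33, and an MWCNT array resembled the control of its number most in 2 of 5 cases. The replicate numbers were thus treated as names without pairing. Signal over background limits Tbp most, whose spots varied by 20.7% within an array.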
